A study of Sus scrofa with 33 samples.

Results

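The circadian clock genes PER1, PER2, PER3, CRY1, CRY2, ARNTL, CLOCK, NR1D1, NR1D2 and DBP were followed in the pituitary of pigs kept under thermoneutral (TN) or heat stress (HS) conditions. Members were all array probes that carried one of these 10 symbols as their gene name or in their description. The rule found 14 probes among the 60305 of the array, covering 9 of the 10 genes, and no probe carried the symbol DBP. The deposited normalized table of 45667 probes held 12 of the 14, which covered 8 genes. The probe found for CLOCK and a second probe of NR1D1 were not in that table and were not tested in the main fits.

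Tissue came from 33 castrated pigs, 1 array each, of 3 genetic groups with 11 arrays apiece: Large White (LW), Creole (CR in the array names) and their F1 cross. By temperature these were 5 TN and 6 HS pigs in LW, 5 TN and 6 HS pigs in Creole, and 6 TN and 5 HS pigs in F1. The labels state 24 °C as the TN temperature and 30 °C as that of HS, and the protocol text states 32 °C held over 5 days. Slaughter of the TN pigs preceded the warming of the rooms and slaughter of the HS pigs followed it, so slaughter day and age cannot be told apart from temperature. All pigs shared a fixed artificial light period according to the methods. The hour of slaughter of each pig is not given in the sources used here, so a difference in clock time between pigs cannot be told apart from a difference in expression level. By the methods a pen held pigs of a single breed, and each breed came from 3 blocks of littermates that were spread over pens. Neither pen nor parentage was among the labels used here.

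The circadian clock is a feedback loop of transcription present in most mammalian cells, the pituitary included. ARNTL (also called BMAL1) and CLOCK form a dimer that activates the PER and CRY genes, and the PER and CRY proteins then return to the nucleus and repress that dimer. A further loop runs through NR1D1 and NR1D2 (REV-ERB alpha and beta), nuclear receptors that are switched on by ARNTL and CLOCK and repress ARNTL. In tissues sampled around the clock, ARNTL transcripts therefore peak at a different time of day from NR1D1, NR1D2 and the PER transcripts. DBP is a transcription factor of the output of the clock.

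Each measurement rested on 60-base probes, and their sequences show what could be read for these genes. The following probes are printed because their genes carry the comparisons below, or because probes of 1 gene behaved differently. They are given 5′ to 3′ as in the array design, in lower case throughout.
NR1D1 O11226: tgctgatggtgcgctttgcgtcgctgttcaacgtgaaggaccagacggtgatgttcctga
NR1D1 A_72_P186261: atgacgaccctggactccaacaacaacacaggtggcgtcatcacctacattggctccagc
PER3 O9093: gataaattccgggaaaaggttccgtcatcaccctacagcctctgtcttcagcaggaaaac
ARNTL A_72_P481317: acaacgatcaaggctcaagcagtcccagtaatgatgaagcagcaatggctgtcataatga
ARNTL A_72_P044041: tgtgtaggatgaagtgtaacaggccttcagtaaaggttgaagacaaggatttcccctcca
CRY2 O8368: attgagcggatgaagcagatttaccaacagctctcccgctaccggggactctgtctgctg
The first NR1D1 probe was well above background on 33 of 33 arrays and the second on 2 of 33, so NR1D1 was read from the first. The 2 had the same G and C content, 55% of bases. The PER2 probe, not printed, carried 8 CT repeats in a row near its 3′ end. The array files name no genome build for these probes, so no coordinates are given.

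All 12 tested probes were well above background on 33 of 33 arrays. For genes with several probes, the probe with the highest mean level represents the gene, which was A_72_P255677 for CRY1, A_72_P332498 for CRY2 and A_72_P481317 for ARNTL. The CLOCK probe, A_72_P079316, was matched through a description that names the horse gene. It was well above background on 19 of 33 arrays, namely 8 of 11 LW, 7 of 11 Creole and 4 of 11 F1 arrays, so no difference is given for it. All levels below are log2 of quantile-normalized intensity, and differences are log2 differences from a limma fit across all 45667 probes, with adjusted p-values by Benjamini-Hochberg over all of them.

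The share of spots well above background ran from 73.5% to 82.2% over the arrays, and 0 spots were saturated. The arrays lay on 5 slides. Array LW HS 3 carries Large White in its title and Creole in its breed field. It was analysed as Large White, and several results that it moves are given with and without it. Of the 9 anterior lobe markers listed, 9 were measured and 0 were at background, and the posterior lobe hormone genes AVP and OXT were also well above background on 33 of 33 arrays, although the methods name the anterior lobe. In bulk tissue, fewer cells of a type and less RNA per cell cannot be told apart.

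HS against TN was the first comparison, which asks whether the clock transcripts of the pituitary changed with the hot environment. No clock probe passed the adjusted threshold of 0.05. The limma count was 0 of 12 probes, where the fit called 10 probes over the whole table (0.0219%). Before adjustment, 4 of the 12 had a p under 0.05, 2 higher and 2 lower in HS, against 8.77% of all probes, 4.91% higher and 3.86% lower. The 2 lower ones were both probes of ARNTL, so they are not separate genes. The smallest adjusted p among the 12 was 0.358. The median difference of the 12 was 0.06, beside 0.01 over all probes, and 7 of the 12 were positive, beside 54.7% of all.

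ARNTL, the activator of the loop, had its 3 probes on the negative side. Its representative probe lay between 9.78 and 10.54 in the 16 TN arrays, with a median of 10.26. In the 17 HS arrays it lay between 9.08 and 10.50, with a median of 10.02. The ranges overlapped, with LW HS 3 the lowest array of all at 9.08 and LW HS 2 and LW HS 4 next at 9.64 and 9.66. The fitted difference was -0.23 (SE 0.0978, limma, n = 33, adjusted p = 0.494), and in 14 of 17 HS arrays the level was under the mean of the same breed in TN. Without LW HS 3 the difference was -0.17.

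The second ARNTL probe, A_72_P035936, differed by -0.27 (SE 0.0974, limma, unadjusted p = 0.00868, adjusted p = 0.358), and was lower than that mean in 15 of 17 HS arrays. Without LW HS 3 it differed by -0.21 (adjusted p = 0.4, limma). The last of them, A_72_P044041, differed by -0.09 (SE 0.0756, limma, adjusted p = 0.776), and was lower in 12 of 17. After removal of group means the first and second probes correlated at r = 0.888 over the 33 arrays, whereas A_72_P044041 correlated with them at 0.376 and 0.448. The 3 probes thus had the same sign and different sizes.

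NR1D2, the receptor that represses ARNTL, was on the positive side. It lay between 10.63 and 11.57 in TN arrays with a median of 10.85, and between 10.58 and 11.57 in HS arrays with a median of 11.05. The groups covered nearly the same range. The fitted difference was 0.18 (SE 0.0816, limma, n = 33, adjusted p = 0.52), and 13 of 17 HS arrays were higher than the mean of the same breed in TN. NR1D1, its paralog, differed by 0.07, with a 95% interval from -0.11 to 0.24.

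The repressor genes gave small differences. PER1 differed by 0.06 (95% interval -0.14 to 0.26), PER2 by -0.06 (-0.16 to 0.03) and PER3 by 0.09 (-0.04 to 0.23). CRY1 differed by 0.10 on its brighter probe (-0.05 to 0.25) and by 0.15 on the other. The 2 CRY1 probes correlated at r = 0.784 between arrays. CRY2 differed by less than 0.01 on its representative probe (SE 0.0486), with a 95% interval from -0.10 to 0.10. Its dimmer probe O8368 differed by 0.13 (SE 0.0589, limma, unadjusted p = 0.0351, adjusted p = 0.525). The 2 CRY2 probes did not vary together (r = -0.156 over 33 arrays), so which of them follows CRY2 was not settled by these data. For HS against TN over all breeds, the 95% intervals of the clock probes stayed under 0.35 log2 units in either direction, with 2 exceptions. Those of the ARNTL probes A_72_P035936 and A_72_P481317 reached -0.47 and -0.42. Within single breeds the intervals were wider, reaching 0.59 for NR1D2 in Creole and -0.89 for ARNTL A_72_P481317 in LW.

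**Figure D1:**
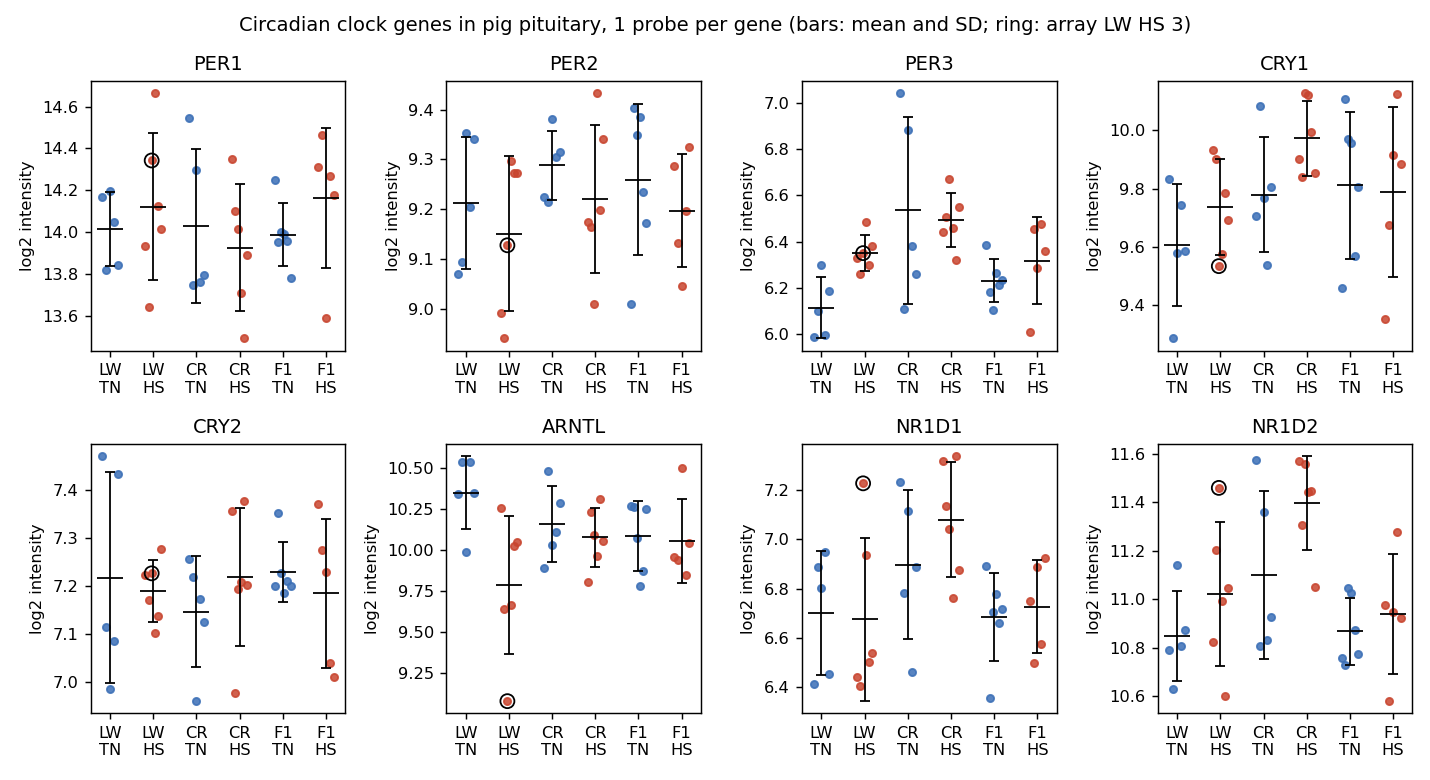
Log2 intensity of the 8 measured clock genes (y axes) in each of the 6 breed-by-temperature groups (x axes), 1 point per pig, with the group mean and SD as bars, blue for TN and red for HS. NR1D2 and PER3 lie highest in Creole arrays, and the ringed array LW HS 3 is the lowest of 33 for ARNTL at 9.08.

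One marker was called with temperature, each marker being read from its brightest probe. HBB, the haemoglobin beta chain and 1 of 2 erythroid markers measured (HBM had no probe), was lower in HS (adjusted p = 0.0301, limma), and the summed erythroid level ran from 9.31 to 11.54 in TN and from 8.74 to 10.67 in HS arrays. The other erythroid marker, ALAS2, differed by -0.03 (unadjusted p = 0.716, limma), so the sum follows HBB. The endothelial markers PECAM1, VWF and CDH5 had negative differences, 0 of 3 called and 2 of 3 with an unadjusted p under 0.05, and their sum ran from 11.99 to 13.41 in TN and from 11.76 to 12.38 in HS. The fibroblast markers COL1A1 and DCN were also negative, 0 of 2 called and 2 of 2 before adjustment, with sums from 13.13 to 14.68 in TN and from 12.99 to 14.20 in HS. Of the 9 anterior lobe markers 0 were called and 1 had an unadjusted p under 0.05, PITX1 at 0.17 (unadjusted p = 0.00779, limma). POU1F1 differed by 0.15 on its brightest probe (unadjusted p = 0.0722) and by 0.20 to 0.33 on its other probes, with an unadjusted p of 0.000366 for A_72_P413713 and 0.00636 for A_72_P413723. The part of these markers in the differences of the clock genes was not tested.

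Within breeds, HS against TN was read to see whether the response had the same size in each genetic group. No clock probe was called in LW, Creole or F1 (0 of 12 in each, where 0% of all probes were called in each), and 4, 1 and 0 of the 12 had an unadjusted p under 0.05, against 6.8%, 5.85% and 5.68% of all probes. The largest difference was that of ARNTL in LW. Its 5 LW TN arrays read 10.34, 10.54, 9.99, 10.54 and 10.35, and its 6 LW HS arrays read 10.26, 9.64, 9.08, 9.66, 10.02 and 10.05. Only LW TN 3, at 9.99, fell inside the HS range. The difference was -0.57 (SE 0.158, limma, unadjusted p = 0.00113, adjusted p = 0.575), and the mean difference without LW HS 3 was -0.42.

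In the other breeds the representative ARNTL probe differed by -0.08 (Creole) and -0.03 (F1). A_72_P035936 differed by -0.48 in LW (-0.31 without LW HS 3, its lowest array at 8.44), by -0.21 in Creole and by -0.12 in F1. A_72_P044041 differed by -0.18, -0.22 and 0.14, so its difference was not largest in LW. The F-test for a breed-by-temperature interaction gave an unadjusted p of 0.042 for the representative ARNTL probe (adjusted p = 0.926), and 0.305 and 0.0923 for the other ARNTL probes. Without LW HS 3 the unadjusted p of the representative probe was 0.111. With all arrays the F-test called 0 of 12 clock probes and 0% of all probes (unadjusted, 1 of 12 and 4.25%). A different response between breeds was therefore not established.

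PER3 and the dimmer CRY2 probe were the other LW probes with an unadjusted p under 0.05 besides ARNTL A_72_P481317 and A_72_P035936. PER3 read 5.99, 6.10, 6.30, 5.99 and 6.19 in LW TN and 6.33, 6.26, 6.35, 6.49, 6.30 and 6.38 in LW HS, so of the HS arrays only LW HS 2, at 6.26, lay within the TN range. The difference was 0.24 (SE 0.116, limma, adjusted p = 0.732). CRY2 O8368 read 5.93, 6.04, 6.06, 5.80 and 5.93 in LW TN and 6.40, 6.21, 6.07, 6.24, 6.33 and 6.19 in LW HS, with no overlap (difference 0.29, SE 0.0992, limma, adjusted p = 0.642). In Creole, NR1D2 was the probe with an unadjusted p under 0.05 (difference 0.30, adjusted p = 0.829, limma). It read 11.57, 10.81, 11.36, 10.83 and 10.92 in Creole TN, and 11.57, 11.31, 11.56, 11.44, 11.45 and 11.05 in Creole HS.

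Breed gave the differences that passed the threshold. Between LW and Creole, 2 of 12 clock probes were called, both lower in LW, where the limma fit called 6.65% of all probes (3.05% lower in LW). These were PER3 and NR1D2. Before adjustment 5 of the 12 had a p under 0.05, all lower in LW, against 18.7% of all probes and 9.01% in that direction. Both CRY1 probes were among these 5, so they are not 5 separate genes. The 2 called probes are 16.7% of the 12, above both background shares. A count of 2 among 12 probes is small and was given no test, so only the values of both genes are read.

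PER3, one of the period repressors, ranged from 5.99 to 6.49 in the 11 LW arrays with a median of 6.30, and from 6.11 to 7.04 in the 11 Creole arrays with a median of 6.46. The ranges overlapped, and 5 Creole arrays lay above every LW array. PER3 was lower in LW by 0.27 log2 units (difference -0.27, SE 0.0832, 1.20-fold, limma, adjusted p = 0.0442). All 11 LW arrays lay below the Creole mean. On each of the 5 slides LW lay below Creole, by differences of -0.09 to -0.56. Slide 1 held 1 LW array, in TN, and 1 Creole array, in HS. The within-slide differences given here and below are not adjusted for temperature. Creole TN 1 and Creole TN 3, at 7.04 and 6.88, were the highest of the 33 arrays.

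NR1D2 ranged from 10.60 to 11.46 in LW with a median of 10.87, and from 10.81 to 11.57 in Creole with a median of 11.36. It was lower in LW (difference -0.32, SE 0.0995, 1.25-fold, limma, adjusted p = 0.0472), with 10 of 11 LW arrays below the Creole mean. Within slides LW lay below Creole on 4 of 5, by -0.18 to -0.78, and differed by 0.03 on slide 3. The -0.78 is that of slide 1, from the single arrays LW TN 1 and Creole HS 1. The exception among the arrays was LW HS 3 at 11.46, the array whose breed field reads Creole. With this array left out the difference was -0.36 (adjusted p = 0.02, limma), and with it taken as Creole it was -0.37 (adjusted p = 0.0177).

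NR1D1 had nearly the same difference between these breeds as NR1D2 and missed the threshold. It ranged from 6.41 to 7.23 in LW and from 6.46 to 7.34 in Creole, with medians of 6.54 and 7.04. The difference was -0.31 (SE 0.103, 1.24-fold, limma, adjusted p = 0.0668), and 10 of 11 LW arrays lay below the Creole mean. On slide 4 the LW mean was above the Creole mean by 0.18. On the other 4 slides LW lay below Creole, slide 1 with its single array of each included. The highest LW array was again LW HS 3. Without it the difference was -0.36 (adjusted p = 0.0229, limma), and with it taken as Creole it was -0.38 (adjusted p = 0.0192). PER3 kept a difference of about the same size and lost its call, at -0.28 without LW HS 3 (adjusted p = 0.0533, limma) and -0.26 with that array taken as Creole (adjusted p = 0.0797).

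F1 pigs against Creole gave 1 called clock probe of 12, where the fit called 6.86% of all probes (3.39% lower in F1). NR1D2 ranged from 10.58 to 11.28 in F1 with a median of 10.92 and was lower than in Creole by 0.34 log2 units (difference -0.34, SE 0.0998, 1.27-fold, limma, adjusted p = 0.0314). In F1, 10 of 11 arrays lay below the Creole mean. Before adjustment 3 of the 12 had a p under 0.05, all lower in F1, against 21.8% of all probes and 10.6% in that direction. The other 2 were NR1D1 (difference -0.29, SE 0.103, limma, adjusted p = 0.0888) and PER3 (difference -0.23, SE 0.0834, limma, adjusted p = 0.0836). For each of them 11 of 11 F1 arrays had a level under the Creole mean. LW against Creole and F1 against Creole share the 11 Creole arrays, so they are not separate evidence on the Creole level.

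Between F1 and LW the limma fit called 0 of 12 clock probes, where 1.48% of all probes were called. Before adjustment 0 of the 12 had a p under 0.05, against 13.9% of all probes. For NR1D2 the 95% interval of F1 minus LW ran from -0.23 to 0.18, for NR1D1 from -0.19 to 0.23 and for PER3 from -0.13 to 0.21.

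CRY1 had differences in the same direction for LW against Creole on both probes, -0.21 and -0.23 (limma, adjusted p = 0.179 and 0.223). PER1, PER2 and CRY2 were not called in any breed comparison. ARNTL differed by -0.07 between LW and Creole (95% interval -0.32 to 0.17), or 0.02 without LW HS 3, and by -0.06 between F1 and Creole (-0.31 to 0.18).

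**Figure D2:**
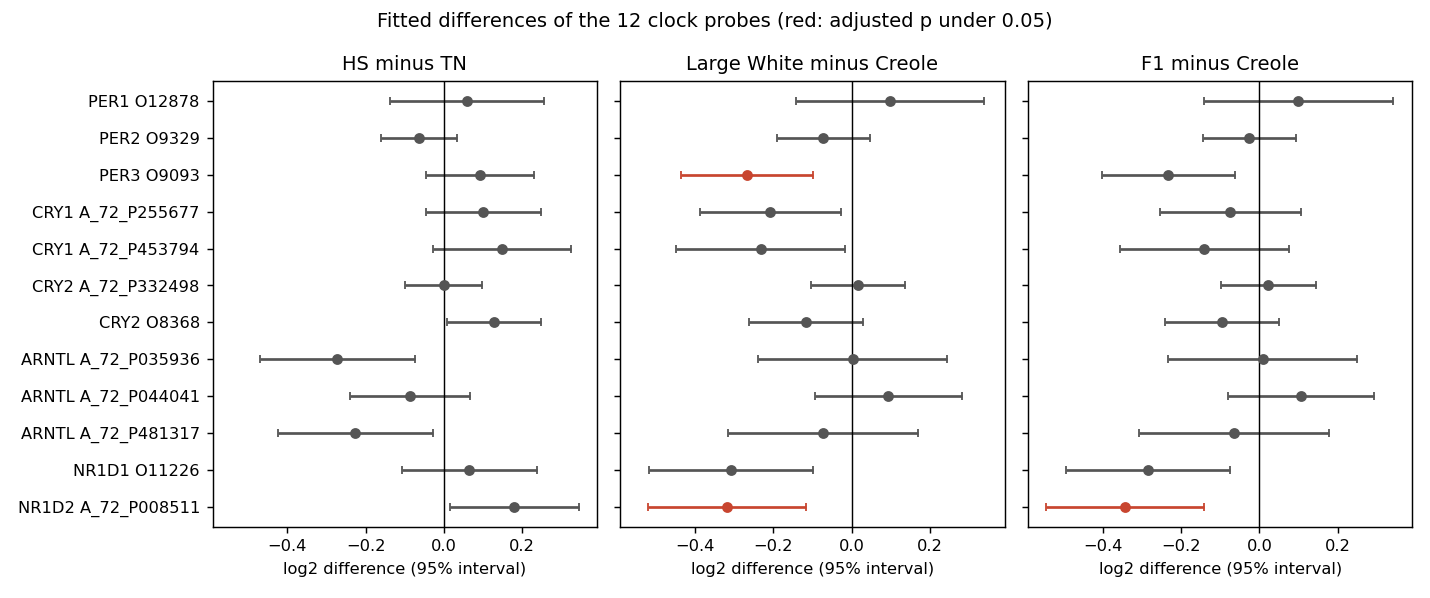
Fitted log2 differences of the 12 clock probes (x axes, points) with 95% intervals (bars) for HS minus TN, Large White minus Creole and F1 minus Creole, with probes on the y axis and red for an adjusted p under 0.05. Red points are PER3 (-0.27) and NR1D2 (-0.32) for Large White minus Creole and NR1D2 (-0.34) for F1 minus Creole, and there is none for HS minus TN.

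These calls lay near the threshold. Each array was left out in turn, which gave 33 fits per comparison. PER3 in LW against Creole stayed past the threshold in 18 of 33 fits (adjusted p from 0.0171 to 0.0895), and NR1D2 in 11 of 33 (0.02 to 0.0994). NR1D2 in F1 against Creole stayed past it in 27 of 33 fits (0.0158 to 0.0764). It was lost without Creole HS 1, Creole TN 1, F1 HS 2, Creole HS 3, F1 TN 2 or Creole TN 3, with adjusted p-values of 0.0568, 0.0664, 0.0764, 0.0543, 0.0505 and 0.0552. With Creole TN 1 and Creole TN 3 left out together, the differences for LW against Creole were -0.15 for PER3 and -0.24 for NR1D2 (adjusted p = 0.184 and 0.176, limma). For F1 against Creole they were -0.27 for NR1D2 and -0.10 for PER3 (adjusted p = 0.127 and 0.368, limma). On the processed signal of the scanner software PER3 was -0.48 in LW against Creole (adjusted p = 0.0241, limma) and -0.34 in F1 against Creole (adjusted p = 0.13, limma), and both NR1D2 calls were lost (adjusted p = 0.0658 in LW and 0.0568 in F1 against Creole). Array weights also ended both NR1D2 calls (adjusted p = 0.112 and 0.0929). None of the alternatives run turned the sign of these differences.

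The 2 fibroblast markers measured, DCN and COL1A1, were also lower in LW than in Creole (2 of 2 called, limma, adjusted p = 0.000857 and 0.0264). Between F1 and Creole, where NR1D2 was called, DCN was lower in F1 (difference -0.49, limma, adjusted p = 0.0212) and COL1A1 differed by -0.38 (adjusted p = 0.184). Their summed level ran from 12.99 to 14.39 in LW, from 13.40 to 14.68 in Creole and from 13.10 to 14.11 in F1 arrays. Among the 9 anterior lobe markers, POU1F1, a factor of somatotroph, lactotroph and thyrotroph cells, was lower in LW than in Creole (adjusted p = 0.0363, limma) and was the 1 called by the brightest probe of each gene, while PITX1 was higher in F1 than in Creole (adjusted p = 0.0435, limma). A dimmer probe of FSHB, the beta subunit of follicle-stimulating hormone, was higher than in Creole in LW (difference 0.36, adjusted p = 0.0268, limma) and in F1 (0.39, adjusted p = 0.0186), and the brightest FSHB probe was not called (0.23 and 0.26). Of the 3 posterior lobe markers 0 were called. Of the 3 endothelial markers, CDH5 was higher in LW (adjusted p = 0.045, limma). Their part in the differences of PER3 and NR1D2 was not tested.

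Variation between pigs of the same group was examined last, because members of the loop can peak at different times of day and the hour of slaughter is not given. Whether the correlations below follow clock time was not tested. Group means were removed, and Pearson's r was computed for the 28 pairs of the 8 genes over 33 arrays, with a permutation test of 100000 resamples within groups and Benjamini-Hochberg adjustment over the 28 pairs. In this test 1 of the 28 pairs passed the threshold and 5 had an unadjusted p under 0.05.

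The pair was ARNTL and NR1D2, which varied in opposite directions (r = -0.638, permutation p = 0.00063, adjusted p = 0.0176). Spearman's rho was -0.613 (permutation p = 0.00088, adjusted p = 0.0246). Leaving out the 2 arrays farthest from the ARNTL median, LW HS 3 and LW HS 1, gave r = -0.557. The sign was the same among TN arrays (-0.783) and HS arrays (-0.554), and in LW (-0.849), Creole (-0.618) and F1 arrays (-0.343). With slide removed along with group means r was -0.589. Within the 4 slides of at least 7 arrays it was -0.41, -0.907, -0.634 and 0.144, so 1 slide went the other way. The other ARNTL probes gave r = -0.664 and -0.532 with NR1D2.

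The adjusted p of this pair depended on a few arrays. Without LW HS 3 it was 0.0665 (r = -0.555) and without LW TN 3 it was 0.0689, and it stayed under 0.05 in the other 31 of 33 runs that left out 1 array. With LW HS 3 taken as Creole r was -0.465 (adjusted p = 0.132). With Creole TN 1 and Creole TN 3 left out together r was -0.607 (adjusted p = 0.119).

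The next pairs were PER1 with PER3 (r = 0.553, permutation p = 0.00675, adjusted p = 0.064) and PER1 with ARNTL (r = -0.529, permutation p = 0.00686, adjusted p = 0.064). Spearman's rho was 0.538 and -0.513 (permutation p = 0.00725 and 0.00575, adjusted p = 0.0677 for both). Without the 2 arrays farthest from the PER1 median they gave r = 0.582 and -0.469. PER1 and PER3 had r between 0.645 and 0.785 within each of the 4 slides. PER1 and ARNTL had r between -0.858 and -0.067 within them. With slide removed, r was 0.722 for PER1 with PER3 (adjusted p = 0.00084) and -0.569 for PER1 with ARNTL (adjusted p = 0.0242), and 5 pairs passed the threshold. The other 3 were ARNTL with NR1D2 (-0.589), PER3 with ARNTL (-0.546) and NR1D1 with NR1D2 (0.571), each with an adjusted p of 0.0242.

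NR1D1 and NR1D2 had r = 0.498 (permutation p = 0.0137, adjusted p = 0.0961) and a rho of 0.391 (permutation p = 0.0482, adjusted p = 0.178). Without LW HS 3 their r was 0.394. The 6 pairs among PER1, PER3, NR1D1 and NR1D2 all had a positive r over the 33 arrays, from 0.276 to 0.553. These signs were not shared by all subsets. The 6 values ran from 0.531 to 0.799 among TN arrays and from -0.116 to 0.471 among HS arrays, with PER3 and NR1D1 at -0.116 and PER3 and NR1D2 at -0.0335 in HS. In F1 arrays 4 of the 6 were negative, the lowest at -0.266 for PER1 and NR1D1. The pairs of ARNTL with PER1, PER2, PER3, NR1D1 and NR1D2 all had a negative r over the 33 arrays, from -0.638 to -0.249. That of ARNTL with NR1D1 rested on LW HS 3, since it was -0.288 with this array and -0.0459 without it, and 0.223 in F1 arrays. Among the representative probes, PER2 had no r beyond 0.249 in size and CRY2 none beyond 0.308. With the other probes, PER2 had -0.35 with CRY1 A_72_P453794, and CRY2 O8368 had 0.377 with PER3, against -0.308 for the representative CRY2 probe with PER3. These are counts of signs over the same 33 arrays and were given no test of their own.

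**Figure D3:**
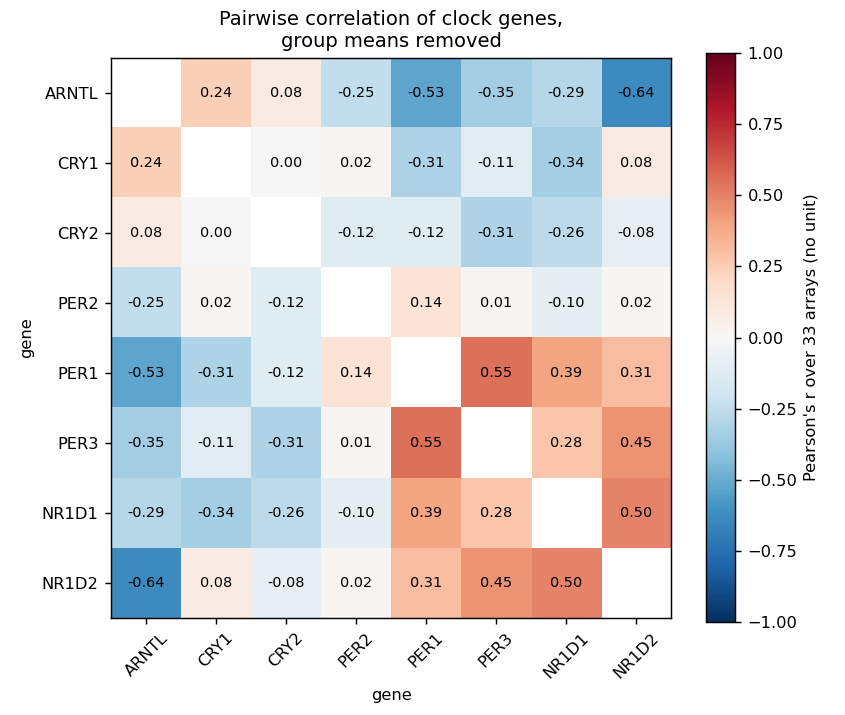
Pearson's r between the 8 measured clock genes (both axes) over 33 arrays after removal of group means, red for positive and blue for negative. ARNTL is blue with NR1D2 (-0.64), PER1 (-0.53) and PER3 (-0.35), and the block of PER1, PER3, NR1D1 and NR1D2 is red throughout.

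**Figure D4:**
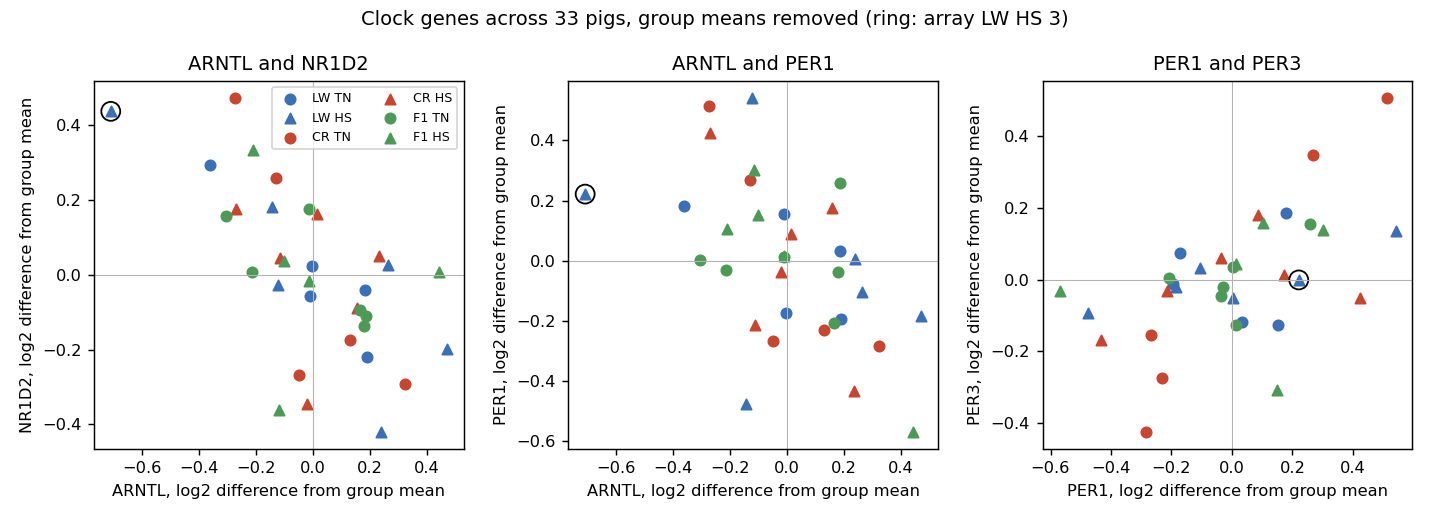
Log2 difference of each pig from its group mean for ARNTL and NR1D2, ARNTL and PER1, and PER1 and PER3 (x and y axes), with colours for breeds, circles for TN and triangles for HS. Points fall from upper left to lower right in the panels with ARNTL, and the ringed array LW HS 3 is the lowest for ARNTL.

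Creole TN 1 and Creole TN 3 are described because they were seen to be extreme for several of these genes, and they are among the arrays that gave the correlations. Creole TN 1 and Creole TN 3 were the highest of their group of 5 for PER1 (14.54 and 14.30, the others 13.75 to 13.80), for PER3 (7.04 and 6.88, the others 6.11 to 6.38), for NR1D1 (7.23 and 7.12, the others 6.46 to 6.89) and for NR1D2 (11.57 and 11.36, the others 10.81 to 10.92). The same pair were the lowest for the representative ARNTL probe, at 9.89 and 10.03 beside 10.11 to 10.48. On ARNTL A_72_P044041 Creole TN 5 was the lowest at 7.170, beside 7.172 and 7.271 for the pair. They lay on different slides. Their summed fibroblast level was 14.68 and 13.99, inside the range of 13.82 to 14.51 of the other 3 for Creole TN 3 and above it for Creole TN 1. Their summed endothelial level was 13.19 and 12.30, beside 12.04 to 12.66. The part of these cell types was not tested.

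For each gene, the named genes whose group-centred values were most like it were found over the 33 arrays among 10054 genes with 1 probe each. They are given as a description, with no test, since they are the extremes of many. ARNTL was most like FN3K (r = 0.584, rho = 0.512), ORMDL3 (0.584, rho = 0.656) and NFIL3 (0.581, rho = 0.527). NR1D2 was most like DKK2 (r = 0.695, rho = 0.756), BHLHE41 (0.628, rho = 0.625) and VPS13A (0.625, rho = 0.664). NFIL3 and BHLHE41 also stand on the list of other clock genes described next.

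PER1 was most like LPIN3 (r = 0.735), GLIS2 (0.734) and CCDC120 (0.716), and PER3 most like ZEB1 (0.699), MAML2 (0.66) and C1QTNF5 (0.651). PER2 was most like IGFBP1 (0.805), PIK3C2B (0.799) and ARL9 (0.787). For CRY1 they were NR2C2AP (0.715), ATMIN (0.703) and PPP4R2 (0.694), for CRY2 PTPRS (0.72), DNAH17 (0.698) and FTCD (0.692), and for NR1D1 FAM129B (0.671), GTF3C2 (0.633) and USP54 (0.609).

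Other genes of the clock pathway were taken from a list of 26, of which 19 were measured. They include further nuclear receptors (RORA, RORB), repressors of the loop (BHLHE40, BHLHE41, CIART, NFIL3), kinases and ubiquitin ligases that act on PER and CRY, and CIRBP, a cold-inducible RNA-binding protein. In HS against TN, by the brightest probe of each gene, 0 of the 19 were called by limma (0.0219% of all probes) and 4 had an unadjusted p under 0.05 (8.77% of all probes), all with a positive difference: CIART 0.35, HLF 0.20, CIRBP 0.17 and BHLHE41 0.15, with adjusted p-values between 0.284 and 0.498. BHLHE41 has a second probe, O11462, at -0.02, and CIRBP a second, O7574, at 0.07. In all, 17 of the 19 had a positive difference, beside 54.7% of all probes, and NPAS2 and NFIL3 had a negative one. A dimmer NFIL3 probe, A_72_P487453, differed by -0.21 (unadjusted p = 0.0348, limma). The median of the 19 was 0.05. NPAS2, a paralog of CLOCK that also pairs with ARNTL, differed by -0.13 (SE 0.117).

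Between LW and Creole, 1 of the 19 had an unadjusted p under 0.05 (18.7% of all probes) and the same 1 was called (6.65% of all probes), RORB, which activates the same sites that NR1D1 and NR1D2 repress. RORB was lower in LW (difference -0.30, SE 0.0898, limma, adjusted p = 0.0387). Between F1 and Creole, 2 of the 19 were called (6.86% of all probes) and 10 had an unadjusted p under 0.05 (21.8% of all probes). CIRBP was lower in F1 (difference -0.36, SE 0.0909, limma, adjusted p = 0.0149) on its brighter probe, whereas O7574 differed by -0.03 (adjusted p = 0.828). PPARGC1A, a transcriptional coactivator that links the clock to energy metabolism, was higher in F1 (difference 0.28, SE 0.0763, limma, adjusted p = 0.0221). The dimmer probes of PPARGC1A gave 0.12 and 0.21 and were not called. NPAS2 differed by 0.45 (SE 0.143, adjusted p = 0.052) in that comparison. Between F1 and LW, 0 of the 19 were called (1.48% of all probes) and 4 had an unadjusted p under 0.05 (13.9% of all probes).

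**Figure D5:**
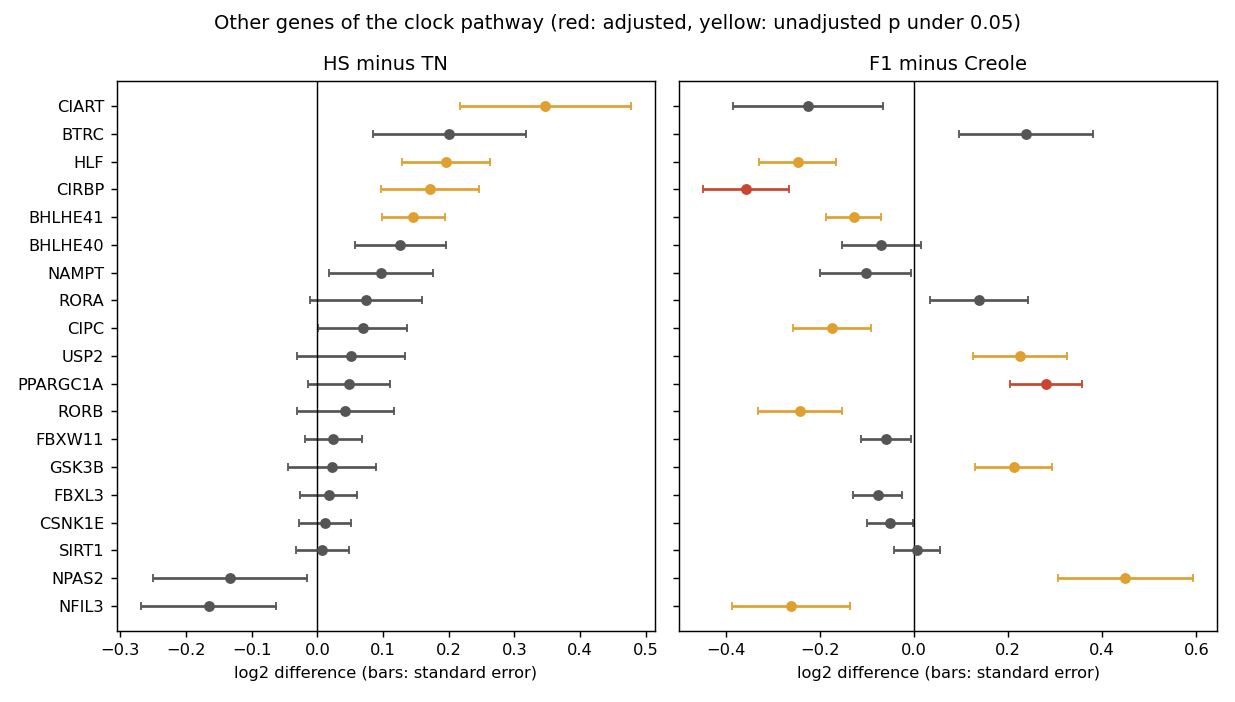
Log2 differences (x axes, points) with standard errors (bars) of 19 further clock pathway genes (y axis) for HS minus TN and F1 minus Creole, red for an adjusted and yellow for an unadjusted p under 0.05. In the panel for HS, 17 of 19 points lie right of 0 and none is red, and for F1 minus Creole CIRBP (-0.36) and PPARGC1A (0.28) are red.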

How the data were processed

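Total RNA of 33 pituitaries was labelled with Cy3 and hybridised to a 1-colour Agilent porcine array. The scanner files, as deposited, hold spot intensity from Agilent Feature Extraction (version 10.10.1.1 per the submitters' processing notes). The authors deposited log2 values of 45667 probes, quantile-normalized from the median intensity without background correction, with 59 missing values. These log2 values were used, and 0 sample columns were left unused. Values rebuilt here from the scanner files differed by a median of 0.00022 log2 units.

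limma 3.58.1 (R 4.3.3, package data.table, version 1.17.8) fitted breed and temperature over all arrays, or a mean per group for effects within breeds and the interaction, with default eBayes, two-sided tests, Benjamini-Hochberg adjustment over 45667 probes and a threshold of 0.05. Pen, slaughter day, father and mother, random terms in the study's model, are not in the labels used here. Correlations used Python 3.11.15, numpy 2.4.6, scipy 1.17.1, pandas 2.3.3 and matplotlib 3.10.9. The fits and the permutation test were tested on simulated data. For genes with several probes the one with the highest mean represents the gene. All members are named. Of the other clock genes, those with an unadjusted p under 0.05 in HS against TN or an adjusted p under 0.05 between breeds are named, with NPAS2 added after its values were seen. For each member, the 3 genes with the highest r are named.

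The members and the lists (other clock genes and markers of the anterior, intermediate and posterior lobe, erythroid cells, leukocytes, endothelium and fibroblasts) were chosen with earlier results of these data known. One item of the list of other clock genes is not reported here and is left out of its counts. Listed genes were counted by their brightest probe. By it, the intermediate lobe marker measured, PAX7, and the 3 leukocyte markers measured were not called in HS against TN or between breeds. Separate animals are the replicates, and their number, 5 or 6 per group, limits the precision. The fits and the permutation test treat pigs of the same litter or pen as independent. Their p-values, those between breeds included, may therefore be too small. Alternatives were other background corrections and scalings, a filter on dim probes, slide as a block, array weights, a trended variance, the fit without breed, the breed of LW HS 3 and each array left out. The fits without Creole TN 1 and 3, the use of the next brightest probes and the follow-up of NR1D1, NR1D2 and PER3 were chosen after seeing the data.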

Additional observations from a re-analysis of the deposited data

Results flagged for a closer look

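In 3 of the 72 sets of 1 probe in 1 group, a single array stood apart from the others by Dixon's criterion, and chance alone sets apart about 1 in 20 such groups. All 3 were in F1 TN. The representative CRY2 probe read 7.35 in F1 TN 2, beside 7.19 to 7.23 in the other 5 arrays. The ARNTL probe A_72_P035936 read 9.22 in F1 TN 4, beside 9.58 to 9.79. The ARNTL probe A_72_P044041 read 7.20 in F1 TN 5, beside 7.36 to 7.43.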

How the results depend on the processing

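No paired analysis was possible, because TN and HS pigs were different animals and the litter blocks are not in the labels used here. HS against TN, over all breeds, within breeds and as interaction, and F1 against LW called 0 clock probes under every alternative run, single arrays left out included. The alternatives built from the scanner files (rebuilt values, processed signal and normexp correction) also held the CLOCK probe, which was not called. LW against Creole called 2 as reported, 1 with the processed signal scaled to the 75th percentile, 1 with array weights, and 0 without Creole TN 1 and 3 together. F1 against Creole called 1, and 0 under each of these 3. Leaving out single arrays gave 0 to 3 and 0 to 2. The number of correlated pairs, 1 as reported, was 3 with the processed signal, 5 with slide removed, 0 with LW HS 3 as Creole, 0 without Creole TN 1 and 3, and 0 to 2 without single arrays. CRY2 in HS against TN, below 0.01 in size, turned sign with array weights (0.0220) and with LW HS 3 as Creole (0.000512), and ranged from -0.0173 to 0.0204 without single arrays. Among the representative probes of the other 7 genes, HS against TN over all breeds kept its sign under the alternatives run and moved in size. PER1, reported as 0.06, ran from 0.02 to 0.11 without single arrays and was 0.15 without Creole TN 1 and 3. NR1D1, 0.07, ran from 0.03 to 0.09 and was 0.10 without them. PER3, 0.09, was 0.15 with the processed signal, 0.06 with normexp and 0.18 without Creole TN 1 and 3. NR1D2 lost its calls with the processed signal (adjusted p = 0.0658 for LW and 0.0568 for F1 against Creole) and with array weights (0.112 and 0.0929). The cause of these changes was not tested. Slide as a block, fixed or random, normexp correction, the dim-probe filter, the trended variance and the rebuilt values kept all 3 breed calls. NR1D1 was called in LW against Creole in 4 of the 33 fits without single arrays.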
